A study of Mus musculus with 8 samples.

Results

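The comparison described here set Stat3-C3S fibroblasts against WT-Stat3 fibroblasts without any peroxide treatment. It took in every gene whose mean expected count reached 10 in the C3S or the WT libraries, which was 12489 of the 19041 rows of the deposited table. Both lines were immortalised mouse embryonic fibroblasts (MEFs) from Stat3 fl/fl embryos at day 14 of pregnancy. A retroviral vector carrying Cre and the Thy1.1 surface marker had removed the cells' own Stat3 in both, and a further vector with GFP then brought in either the mutant or the wild-type protein. C3S cells received Stat3-C3S, in which cysteines that peroxide oxidises are replaced so that the protein no longer senses redox change, and WT cells received WT-Stat3. Each line was a single polyclonal population sorted for Thy1.1 and GFP and used at passage 15-20. There were 2 untreated C3S libraries and 2 untreated WT libraries. A further 2 C3S and 2 WT libraries came from cells given 100 µM H2O2 for 2 h, and these were not used to call genes without it. With 1 population per form of Stat3, the effect of the mutant protein and the history of each population cannot be told apart. The study calls the libraries of a line biological replicates, but the labels do not tell how far apart they were grown, and the p-values cover the spread between libraries alone, which may be technical.

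Stat3 is a transcription factor that cytokines of the interleukin-6 and leukaemia inhibitory factor families activate through gp130 receptors and Jak kinases. Activated Stat3 dimers enter the nucleus, bind short palindromic elements and switch on genes such as Socs3, whose product damps the same receptors. Embryonic fibroblasts are a mixed culture of connective tissue cells from many sites of the embryo, which keep part of the transcription factor code of the site they came from.

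The library totals were 17050016 and 21861869 expected counts for the C3S cells and 19165944 and 18160070 for the WT cells. Values below are normalised counts, that is expected counts divided by 1 size factor per library, and each pair of values gives library 1 and then library 2. Stat3 itself had 5019.8 and 5160.5 in the C3S libraries, against 8464 and 8835 in the WT libraries (log2 fold change -0.76, SE 0.0454). It was thus lower in C3S cells by less than 2-fold (edgeR adjusted p = 2.77e-17), and the counts do not separate the introduced transcript from what may remain of the deleted gene. Libraries of the same line differed by more than sampling noise, with a mean chi-square per gene of 2.48 between the C3S libraries and 3.71 between the WT libraries, where about 1 is what sampling alone gives. At the edge of the count minimum, 1700012D01Rik entered with a mean of 10 in its higher group and 8430423G03Rik stayed out at 9.999, which rounds to the same figure.

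Calls required 2-fold or more and an adjusted p below 0.05. On these terms 815 genes were higher in C3S cells (6.53% of those tested) and 1212 were lower (9.7%), in total 16.2% of the genes tested. The calls leaned towards lower expression in C3S cells, at 59.8% of all calls, whereas by adjusted p alone the genes were split evenly, with 3856 higher and 3835 lower. By fitted fold change the lean grew with the size of the difference. At 4-fold or more there were 305 higher and 636 lower genes, at 8-fold or more 120 and 348, and at 32-fold or more 18 and 43. Among the lower genes 19 had no count in either C3S library, and among the higher genes 5 had no count in either WT library. Counting these, 59 lower and 28 higher genes had under 3 counts over both libraries of the line where they were low. Fitted values of such genes are uncertain, yet they enter these tallies. Hoxc11 and Hoxc12 are among the 43, although the counts only show them at least 7.77-fold and 13.6-fold lower. The typical gene differed little, since the median log2 fold change was 0.00018 and its median size, without the sign, was 0.31.

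**Figure D1:**
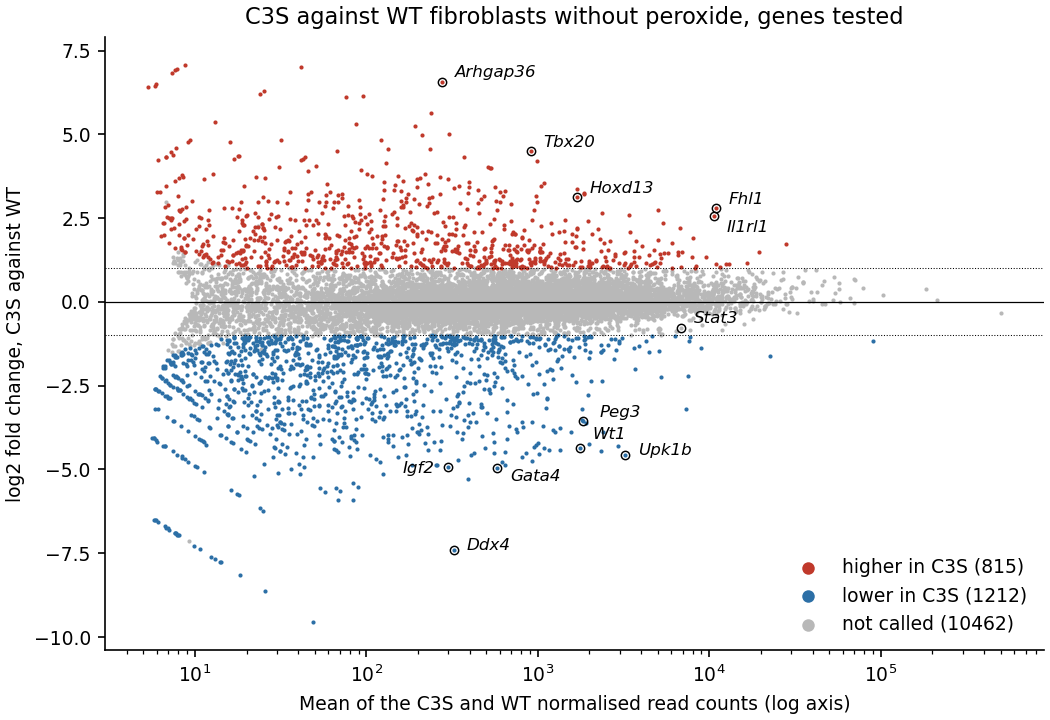
Each point is 1 of the 12489 genes tested, with the mean of its C3S and WT normalised counts on a log axis and its fitted log2 fold change on the vertical axis (dotted lines, 2-fold; for genes at 0 in a line the fitted value is not a bound). The 815 genes higher and the 1212 lower in C3S cells lie on both sides of 0 over most of the range, and the lower ones reach further.

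The genes with the largest rises among the well-measured ones came from several tissues. Arhgap36, an activator of hedgehog signalling, had 531 and 563 in the C3S libraries, against 9.88 and 1.06 in the WT libraries (log2 fold change 6.57, SE 0.232). The WT libraries differed, and the log2 fold change was 8.84 without WT library 1 and 5.78 without WT library 2. Tbx20, a T-box factor best known from the heart, stood at 1735 and 1745 in C3S cells and 70.9 and 82.8 in WT cells (4.50, SE 0.0928). Cochlin (Coch), a matrix protein of the inner ear, stood at 603 and 573 in C3S cells and 22.7 and 12.8 in WT cells (5.02, SE 0.168). In each of these genes the C3S libraries lay far above both WT libraries. The synapse organiser Cbln1 had 370.5 and 378 in the C3S libraries, against 11.9 and 7.44 in the WT libraries (log2 fold change 5.25, SE 0.209), and the glutamate receptor subunit Grin3a had 432 and 471 in C3S cells and 21.7 and 15.9 in WT cells. Mfap5, a protein of elastic microfibrils, Pgbd5, a gene derived from a transposase, Tppp, a binder of tubulin, Hdac9, a histone deacetylase, and Tshz2, a zinc finger factor, made up the rest of the 10, with log2 fold changes of 4.82, 5.64, 4.56, 4.34 and 4.21. Their adjusted p-values ran from 1.49e-31 in Tbx20 to 1.43e-18 in Mfap5 (edgeR). The log2 fold change of Mfap5 was 5.75 without WT library 1 and that of Pgbd5 was 6.27 without WT library 2.

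At the other end stood genes that WT cells expressed well and C3S cells at a few percent of that level. Ddx4, an RNA helicase of germ cells, had 3.60 and 3.76 in the C3S libraries, against 636 and 652 in the WT libraries (log2 fold change -7.40, SE 0.210). Lsr, which builds junctions where several epithelial cells meet, had 18.0 and 20.7 in the C3S libraries, against 782 and 752 in the WT libraries (log2 fold change -5.29, SE 0.149). Gata4, a zinc finger factor of heart, gonad and mesothelium, stood at 39.6 and 33.1 in C3S cells and 1161 and 1088 in WT cells (-4.97, SE 0.121). None of these was near overlap between the lines. Il22ra1, a receptor chain for interleukin-22 that signals through Stat3, had 43.5 and 41.4 in the C3S libraries, against 1258 and 1235 in the WT libraries (log2 fold change -4.88, SE 0.112). The fetal growth factor Igf2 had 13.2 and 23.6 in the C3S libraries, against 546 and 618 in the WT libraries (log2 fold change -4.93, SE 0.171). The Arf regulator gene Arap2, the leukotriene receptor gene Cysltr1, the lipid-binding adaptor gene Plekha2 and the cyclic AMP phosphodiesterase gene Pde3b were also among the 10, with log2 fold changes of -4.88, -4.87, -4.86 and -4.79.

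The H2O2 libraries share no sample with the untreated ones, so they ask whether the same genes separate the lines again. They come from the same single population of each line, so they cannot tell the form of Stat3 from the history of a population. Of the 815 genes higher in untreated C3S cells, 790 could be tested after H2O2 and 667 of them (84.4%) were called higher there too, against a background of 7.83% of all 13455 genes tested after H2O2. Of the 1212 lower genes, 1190 could be tested and 979 (82.3%) were called lower again, against 10.7% of all genes. Only 2 of the higher and 2 of the lower genes were called in the opposite direction. The direction held in 771 and 1161 of them. Seen from the H2O2 side, 63.3% of the genes called higher there and 68.1% of those called lower had been called without it. The median sizes were close, with a median log2 fold change of 1.63 without and 1.82 after H2O2 for the higher genes and of -2.09 and -1.92 for the lower ones. The difference between both states was tested as an interaction in all 8 libraries. At adjusted p under 0.05 and 2-fold, 42 of the 815 higher and 63 of the 1212 lower genes passed it. Among all 13538 genes tested for it, 191 passed. The genes called without H2O2 were chosen on values that enter this test, so the shares cannot be compared on equal terms.

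Few genes of the Stat pathway itself were called. Of 30 genes tested for Stat proteins, gp130 cytokines, their receptors and the Jak kinases, 0 were called higher and 1 lower, and the median was 0.06 (0.00018 over all genes). By edgeR 8 members were higher at an unadjusted p under 0.05, and DESeq2 called 0 of them higher. The lower ones were 2 without C3S library 1, without C3S library 2 or without WT library 2. The called gene was Lif, the cytokine itself, with 112 and 129 in the C3S libraries, against 299 and 290.3 in the WT libraries (log2 fold change -1.28, SE 0.131). The shared receptor chain Il6st (gp130) had 6029 and 6563 in the C3S libraries, against 4737 and 5012 in the WT libraries (log2 fold change 0.37, SE 0.0488). The ligand-specific chains Lifr and Osmr had edgeR log2 fold changes of -0.64 and -0.59 (adjusted p = 1.74e-12 and 1.09e-09), both under the 2-fold limit.

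Of 34 cytokine targets of Stat3, 3 were higher and 9 lower (median -0.20). These are 8.82% and 26.5%, beside a background of 6.53% and 9.7%, so the higher share lay near the background. Socs3, the classical feedback inhibitor, had 333 and 309.6 in the C3S libraries, against 917 and 818 in the WT libraries (log2 fold change -1.44, SE 0.0846). Its relative Socs2, which restrains growth hormone signalling, went the other way, at 513 and 509 in C3S cells and 183 and 189.7 in WT cells (1.45, SE 0.103). Bcl3, a nuclear partner of NF-kB, stood at 22.8 and 32.0 in C3S cells and 112 and 126 in WT cells (-2.09, SE 0.234), and Irf1, a factor that cytokines induce through Stat sites, at 123 and 118 in C3S cells and 376 and 321 in WT cells (-1.54, SE 0.129). Among these genes Socs3 and Irf1 are shown with the part of their promoter that holds the loose Stat consensus TTCNNNGAA, in capitals, with 20 bases on each side. The promoters are those of RefSeq in the GRCm38.p6 build and reach from 250 bases before to 50 bases after the transcription start. The element lies 154 to 146 bases before the start of Socs3, at chr11:117969492-117969540 on the minus strand, and 90 to 82 bases before a start of Irf1, at chr11:53769904-53769952 on the plus strand.
Socs3: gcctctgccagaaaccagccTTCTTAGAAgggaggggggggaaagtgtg
Irf1: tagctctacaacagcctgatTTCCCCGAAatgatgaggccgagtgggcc
The consensus reads the same on both strands, and it includes the tighter form TTCCNGGAA. It was present in the promoter of 9.63% of 592 genes higher in C3S cells, 9.80% of 918 lower genes and 8.29% of the 9889 tested genes with a promoter in the table, and in 8.30% of all 32851 promoters. The tighter form was in 1.86%, 1.96%, 1.56% and 1.15% of the same sets. Of the Stat3 target list, 8 of 29 genes held the loose form and 4 the tighter one. A match is a run of letters and no measure of binding.

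Cell type markers were checked against the label of the cells. The defining fibroblast genes were found in all libraries. Col1a1, the main collagen chain, had 57017 and 58639.8 in C3S cells and 57113 and 57890.2 in WT cells, and the mesenchymal factor Prrx1 had 9537 and 9832 in the C3S libraries, against 3403 and 3550.2 in the WT libraries (log2 fold change 1.48, SE 0.0466). The growth factor receptors Pdgfra and Pdgfrb had log2 fold changes of 1.16 and 0.76. Of 25 fibroblast markers 6 were higher (24%) and 4 lower (16%), and the members stood apart from each other. Shares in this and the following lists stand beside a background of 6.53% higher and 9.7% lower. S100a4, a calcium-binding protein of motile fibroblasts, had 8058 and 7658 in the C3S libraries, against 2347 and 1975 in the WT libraries (log2 fold change 1.86, SE 0.0617), and Twist1, a mesenchymal transcription factor, had 1619.8 and 1501 in the C3S libraries, against 515 and 500.0 in the WT libraries (log2 fold change 1.62, SE 0.0668). Decorin (Dcn), a collagen-binding proteoglycan, stood at 30.0 and 35.8 in C3S cells and 285 and 272 in WT cells (-3.06, SE 0.176), periostin (Postn) at 284 and 294 in C3S cells and 1348 and 1315 in WT cells (-2.20, SE 0.0753) and the progenitor marker Cd34 at 85.1 and 103 in C3S cells and 415 and 416 in WT cells (-2.13, SE 0.127). In bulk RNA, fewer cells of a type and less RNA per cell cannot be told apart, here and in all lists that follow.

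Markers of the mesothelium, the sheet of cells that lines the body cavities, had the lowest median of all 41 lists. Of 27 tested, 21 were lower (77.8%) and 3 higher (11.1%) in C3S cells, with a median log2 fold change of -2.73. Wt1, the transcription factor that defines mesothelium and kidney precursors, had 175 and 155 in the C3S libraries, against 3412 and 3270.3 in the WT libraries (log2 fold change -4.35, SE 0.0751). The surface plaque genes Upk1b and Upk3b had 301 and 228 and 219 and 186 in the C3S libraries, against 6127 and 6322 and 3805 and 3762 in the WT libraries. Bnc1, a zinc finger factor of mesothelium and keratinocytes, stood at 62.3 and 48.9 in C3S cells and 1227 and 1220.1 in WT cells (-4.48, SE 0.109). In all of them the WT libraries lay more than 10 times above the C3S libraries. Against this, mesothelin (Msln), a defining surface marker, had 1802 and 1788 in the C3S libraries, against 1198 and 1009 in the WT libraries (log2 fold change 0.70, SE 0.0635), and Bnc2, the paralog of Bnc1, had 1336 and 1387 in the C3S libraries, against 544 and 591 in the WT libraries (log2 fold change 1.26, SE 0.0667). The sulfatase gene Sulf1 had a log2 fold change of 1.25. The summed level of the list was 12364 and 12329 in C3S cells and 36123 and 36187 in WT cells. After H2O2, 20 of 27 were lower again and 3 higher.

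Of 26 epithelial genes tested, 16 were lower (61.5%) and 3 higher (11.5%), with a median of -2.06. The summed level of the tested members was 4587 and 4576 in C3S cells and 10541 and 10512 in WT cells, and 29 of the 55 in the table did not reach the count minimum, among them Epcam. A member that reached it only in the line where it is high had to differ, so the share does not describe the whole list. The same holds for other lists with members under the minimum. Cdh1, the cadherin of epithelial junctions, had 2.40 and 7.53 in the C3S libraries, against 69.2 and 66.0 in the WT libraries (log2 fold change -3.65, SE 0.402). The splicing factor Esrp2, restricted to epithelia, had 13.2 and 14.1 in the C3S libraries, against 250.0 and 256 in the WT libraries (log2 fold change -4.19, SE 0.216). Krt8 and Krt14, keratins of simple and of stratified epithelium, had 14.6 and 4.71 and 15.8 and 15.6 in C3S cells, against 157 and 149 and 244 and 257 in WT cells. The log2 fold change of Krt8 was -4.07, and it was -4.99 without C3S library 1 and -3.40 without C3S library 2. That of Cdh1 was -4.74 without C3S library 2. The tight junction gene Cldn1 was among the 3 that were higher, at 101 and 147 in C3S cells and 31.6 and 44.6 in WT cells (1.72, SE 0.228).

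**Figure D2:**
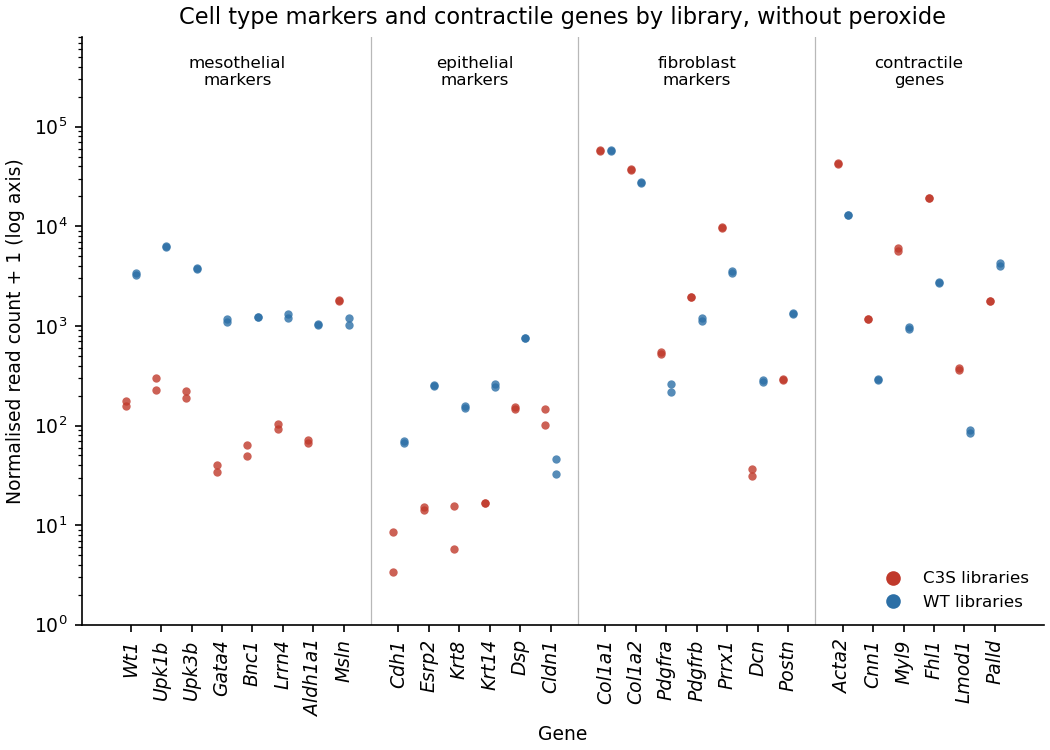
Normalised count plus 1 (log axis) of single genes in each library, with the 2 C3S libraries left of the 2 WT libraries; the genes were picked after their values were seen. Of the mesothelial and epithelial markers shown, those other than Msln and Cldn1 lie lower in C3S cells, while Col1a1 is level and Myl9 and Fhl1 lie higher. On the full lists 3 mesothelial and 3 epithelial genes were called higher, and of these only Cldn1 is shown.

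Defining markers of blood vessels, blood cells and Schwann cells were at or near 0. The endothelial markers Pecam1 and Cdh5 had at most 1 count in any untreated library, the leukocyte marker Ptprc at most 2, and Sox10, which marks Schwann cells, had 0 in all. Of the endothelial list 4 of 16 genes passed the count minimum and of the leukocyte list 4 of 22. Of these 4 endothelial genes 1 was higher and 1 lower, and the log2 fold changes ran from -3.53 to 1.36. The higher one, the vascular receptor Kdr, had 236 and 244 in the C3S libraries, against 81.0 and 106 in the WT libraries (log2 fold change 1.36, SE 0.151). Of 9 neural genes tested 3 were higher and 4 lower, and the lower ones were 2 without C3S library 2, without WT library 1 or in the test against a fold of 2. Map2, a microtubule protein of neurons, had 2013 and 1954 in the C3S libraries, against 382 and 393 in the WT libraries (log2 fold change 2.35, SE 0.0661), while the myelin gene Mbp had 130.2 and 144 in the C3S libraries, against 859.9 and 958 in the WT libraries (log2 fold change -2.72, SE 0.0995). Of 10 skeletal muscle genes 4 were higher and 4 lower, with the acetylcholine receptor subunit Chrna1 at 236 and 223 in C3S cells and 28.8 and 16.1 in WT cells (3.34, SE 0.210). Of 12 cartilage, bone and tendon genes 6 were lower and 1 higher. The higher one was Col10a1, the collagen of enlarged cartilage cells, with 1761 and 1725 in the C3S libraries, against 212 and 179 in the WT libraries (log2 fold change 3.15, SE 0.0792), and among the lower ones were osteopontin (Spp1), at 1241 and 1210.2 in C3S cells and 3533 and 3349 in WT cells (-1.49, SE 0.0545), and the tendon factor Scx, at 63.5 and 71.5 in C3S cells and 165 and 197 in WT cells (-1.41, SE 0.172).

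The Hox genes, which record position along the body axis and along the limb, split by cluster. Of 36 tested, 25 were lower (69.4%) and 4 higher (11.1%) in C3S cells, and the median was -2.70. All 8 tested genes of the Hoxb cluster on chromosome 11 and all 9 of the Hoxc cluster on chromosome 15 were lower. Their summed levels were 68.3 and 77.3 for Hoxb and 64.0 and 70.7 for Hoxc in C3S cells, against 758 and 741 for Hoxb and 1468 and 1424 for Hoxc in WT cells. Hoxc9 had 3.60 and 1.90 in the C3S libraries, against 139 and 121 in the WT libraries (log2 fold change -5.55, SE 0.371), Hoxc10 a log2 fold change of -4.43 and Hoxc13 one of -4.77 (-5.56 without C3S library 2). Hoxc11 and Hoxc12 had no count in either C3S library and 24 and 42 counts over both WT libraries, so that they were at least 7.77-fold and 13.6-fold lower taking 3 counts in the line as the floor. The floor and all counting intervals cover counting error only.

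The Hoxa cluster on chromosome 6 and the Hoxd cluster on chromosome 2 are described by position along the cluster. In groups 1 to 8 of Hoxa 5 of 7 genes were lower, while in groups 9 to 13 the higher genes were 2 of 4. In Hoxd 2 of 3 genes of groups 1 to 8 were lower, and in groups 9 to 13 2 of 5 were higher and 1 lower. Hoxd13, which shapes the digits, had 3031 and 3035 in the C3S libraries, against 344 and 349 in the WT libraries (log2 fold change 3.13, SE 0.0644). Its neighbour Hoxd12 stood at 267 and 226 in C3S cells and 14.8 and 12.8 in WT cells (4.14, SE 0.222), and Hoxa13, its counterpart on chromosome 6, at 136 and 107 in C3S cells and 17.3 and 13.8 in WT cells (2.97, SE 0.268). Hoxd11, next to Hoxd12, had 855 and 899 in C3S cells and 957 and 988 in WT cells, a difference of -0.15 on the log2 scale, and was singled out after its value was seen. Summed over the clusters the level was 6831 and 6754 in C3S cells and 6380.2 and 6368 in WT cells. After H2O2, 26 of 36 were lower and 4 higher. Overlapping and antisense transcripts within the clusters are uncertain, because the sources used here do not say whether the counting used the strand.

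**Figure D3:**
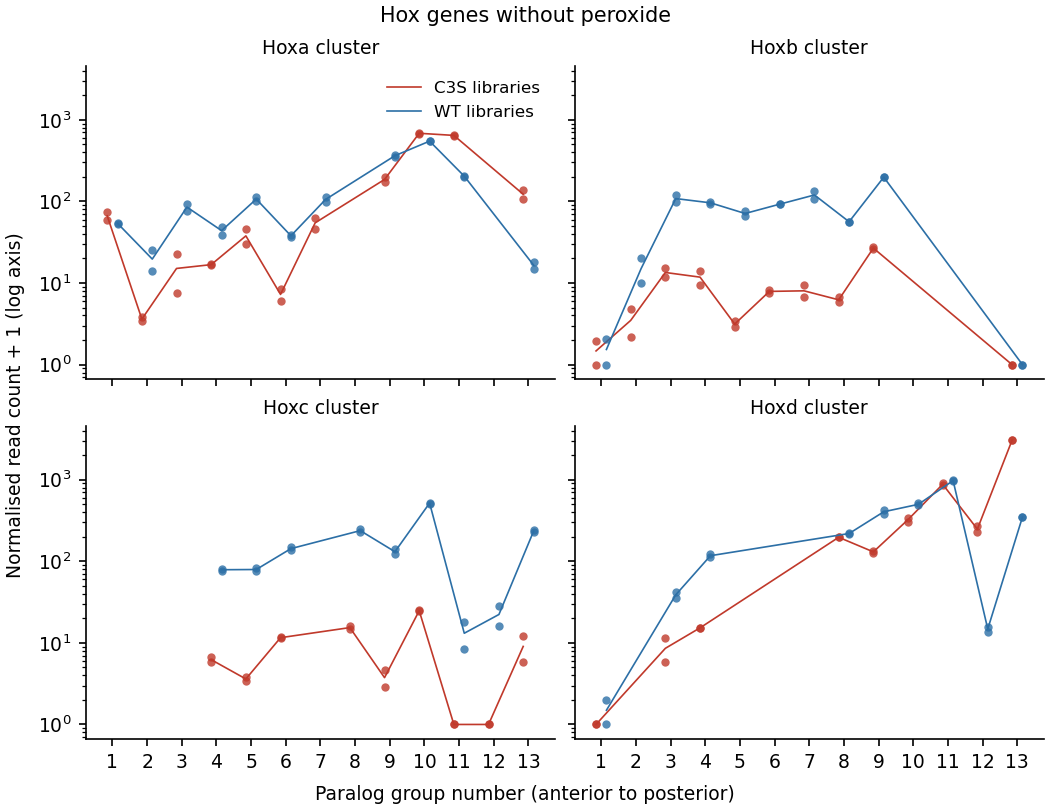
Normalised count plus 1 (log axis) of each Hox gene by its paralog group number, with C3S libraries in red just left of WT libraries in blue and lines through the means of 2 libraries. The Hoxb and Hoxc genes tested lie lower in C3S cells, whereas Hoxa11, Hoxa13, Hoxd12 and Hoxd13 lie higher.

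Other transcription factors of limb and mesenchyme were spread to both sides. Of 80 tested, 25 were higher and 17 lower, which is above the background in both directions, and the median was 0.07. Besides Tbx20, the higher genes included Tbx5, which initiates the forelimb and patterns the heart, with 242 and 223 in the C3S libraries, against 18.9 and 20.2 in the WT libraries (log2 fold change 3.57, SE 0.207), and the limb bud factor Lhx2, with 761 and 689.8 in the C3S libraries, against 62.3 and 72.3 in the WT libraries (log2 fold change 3.43, SE 0.121). Among the lower genes, after Gata4 and Wt1, came Meis1, a Hox partner of the trunk and the upper limb, at 95.7 and 96.0 in C3S cells and 1405 and 1409 in WT cells (-3.87, SE 0.0926).

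More genes of the contractile apparatus were higher than lower in C3S cells. Of 42 tested, 9 were called higher (21.4%) and 3 lower (7.14%), and by adjusted p alone the numbers were 31 and 5 (median 0.63). Fhl1, a LIM protein of muscle fibres and stress fibres, had 19101 and 19094 in the C3S libraries, against 2784 and 2688 in the WT libraries (log2 fold change 2.80, SE 0.0458). Myl9, the regulatory light chain of smooth muscle myosin, had 5995 and 5669 in the C3S libraries, against 977 and 938 in the WT libraries (log2 fold change 2.61, SE 0.0554), and the actin nucleator leiomodin 1 (Lmod1) had 357 and 381 in the C3S libraries, against 84.0 and 88.2 in the WT libraries (log2 fold change 2.10, SE 0.132). In these 3 genes both C3S libraries lay more than 4 times above both WT libraries. Palld, an actin-binding scaffold, had 1797 and 1775 in the C3S libraries, against 4018 and 4284 in the WT libraries (log2 fold change -1.22, SE 0.0522). The myosin kinase gene Mylk had 92.4 and 76.2 in the C3S libraries, against 202 and 162 in the WT libraries (log2 fold change -1.12, SE 0.168), which was under 2-fold without C3S library 2 (-0.98) and without WT library 1 (-0.95). Desmin (Des), an intermediate filament of muscle, had no count in either C3S library and 192 over both WT libraries, at least 62.2-fold lower. The summed level of the list was 595561 and 596978 in C3S cells and 371762 and 377154 in WT cells. Yap targets were called at shares near the background of 6.53% and 9.7%. Of 22 tested, 2 were higher, Ctgf and the coagulation starter F3 (log2 fold change 1.48 and 1.71), and 2 lower, Ankrd1 and Tgfb2 (-2.77 and -1.79). Ankrd1, a mechanosensitive nuclear protein, had 532 and 469 in C3S cells and 3447 and 3357 in WT cells.

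Matrix and adhesion genes changed in both directions. Of 41 collagen genes 6 were higher (14.6%) and 11 lower (26.8%), with a median of 0.01. Of 50 matrix glycoproteins and proteoglycans 14 were higher (28%) and 11 lower (22%), with a median of 0.26. Col18a1, the basement membrane collagen that yields endostatin, had 1804 and 1701 in the C3S libraries, against 235 and 210.4 in the WT libraries (log2 fold change 2.97, SE 0.0767). Loxl4, an enzyme that crosslinks collagen, had 3229 and 3380.1 in the C3S libraries, against 813 and 826 in the WT libraries (log2 fold change 2.01, SE 0.0570). Asporin (Aspn), a small proteoglycan, stood at 307 and 325 in C3S cells and 60.3 and 68.0 in WT cells (2.30, SE 0.148), and Smoc2, a calcium-binding matrix protein, at 2618 and 2719 in C3S cells and 681 and 696 in WT cells (1.96, SE 0.0588). Its paralog Smoc1, by contrast, had 3.60 and 3.77 in the C3S libraries, against 156 and 169 in the WT libraries (log2 fold change -5.41, SE 0.318). The short-chain collagen gene Col8a2 and the enhancer of procollagen cleavage Pcolce2 were lower, at -1.55 and -1.47 on the log2 scale. Of 46 integrins, laminins and cadherins 13 were higher (28.3%) and 7 lower (15.2%). Itga6, the laminin-binding integrin chain, had 8789 and 9040.2 in the C3S libraries, against 1660.0 and 1858 in the WT libraries (log2 fold change 2.34, SE 0.0528). Cdh13, an anchored cadherin, had 814 and 851 in the C3S libraries, against 88.9 and 112 in the WT libraries (log2 fold change 3.06, SE 0.108), and the neural adhesion gene L1cam had a log2 fold change of 2.39. The vitronectin receptor chain Itgb3 stood at 28.9 and 33.0 in C3S cells and 126 and 151 in WT cells (-2.15, SE 0.217) and Mcam at 307 and 316 in C3S cells and 839.9 and 738 in WT cells (-1.34, SE 0.0871).

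Of 43 matrix proteases and inhibitors 15 were lower (34.9%) and 6 higher (14%), with a median of -0.21. Mmp2, the gelatinase of connective tissue, had 137 and 169 in the C3S libraries, against 1143 and 1205 in the WT libraries (log2 fold change -2.92, SE 0.0922). The membrane protease Mmp23 had 8.39 and 8.47 in the C3S libraries, against 229 and 173 in the WT libraries (log2 fold change -4.56, SE 0.267), and Adamts3, which processes procollagen and lymphatic growth factor, had 12.9 and 14.1 in the C3S libraries, against 334 and 317 in the WT libraries (log2 fold change -4.56, SE 0.202). Adam8, an inducible membrane protease, was among the higher genes at 603 and 744 in C3S cells and 98.8 and 101 in WT cells (2.76, SE 0.120), and so were Adamts12 and Adam19, with 1.76 and 1.15 on the log2 scale.

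Secreted signals differed in both directions, with some members of a family higher in C3S cells and others lower. Of 42 Wnt pathway genes 9 were higher (21.4%) and 11 lower (26.2%), with a median of 0.06. Rspo2, an R-spondin that strengthens Wnt signalling and is needed for limbs, had 3050.1 and 3132 in the C3S libraries, against 297 and 306 in the WT libraries (log2 fold change 3.36, SE 0.0661). The Wnt antagonist Dkk2 had 955 and 982 in the C3S libraries, against 62.3 and 56.3 in the WT libraries (log2 fold change 4.03, SE 0.112), and Rspo3 stood at 151 and 133 in C3S cells and 29.6 and 20.2 in WT cells (2.49, SE 0.229). Wnt4 and Wnt11, ligands of kidney development, had 23.2 and 18.9 and 10.8 and 16.9 in C3S cells, against 313 and 337 and 160.1 and 160.5 in WT cells. The receptor gene Fzd3 stood at 40.2 and 58.8 in C3S cells and 464 and 505 in WT cells (-3.24, SE 0.145). Of 56 growth factor genes 12 were higher (21.4%) and 15 lower (26.8%). The stem cell factor Kitl had 2744 and 2765 in the C3S libraries, against 594 and 635 in the WT libraries (log2 fold change 2.17, SE 0.0599), Pdgfd a log2 fold change of 2.99 and the lymphatic growth factor Vegfc one of 2.34. Besides Igf2, the lower ones included Fgf18, with 7.20 and 4.71 in the C3S libraries, against 125 and 128 in the WT libraries (log2 fold change -4.41, SE 0.319), and the intracellular Fgf13, with 3.85 and 2.03 in the C3S libraries, against 125 and 150.4 in the WT libraries (log2 fold change -5.63, SE 0.367).

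Of 47 TGF-beta and BMP genes 8 were higher (17%) and 7 lower (14.9%). The antagonists follistatin (Fst) and noggin (Nog) were higher, at 1771 and 1704 in C3S cells and 352 and 367 in WT cells (2.27, SE 0.0687) and 141 and 106 in C3S cells and 13.8 and 12.8 in WT cells (3.19, SE 0.278), as was the activin chain Inhbb (2.62). The ligand Tgfb2 had 275 and 262 in the C3S libraries, against 911 and 942 in the WT libraries (log2 fold change -1.79, SE 0.0833). The BMP modulator Bmper and the BMP-driven Smad9 had log2 fold changes of -1.69 and -1.56. Of 18 Notch genes 5 were higher (27.8%) and 7 lower (38.9%). Notch1, a receptor, had 1069 and 1096 in the C3S libraries, against 376 and 356 in the WT libraries (log2 fold change 1.56, SE 0.0753), and the ligand Jag2 had 20.4 and 14.1 in the C3S libraries, against 292 and 246 in the WT libraries (log2 fold change -3.98, SE 0.212). Targets of the pathway disagreed, since Hey2 and Nrarp were higher (log2 fold change 2.13 and 2.45) and Hes1 was lower, at 307 and 279.6 in C3S cells and 1019.7 and 959 in WT cells (-1.76, SE 0.0821). Hedgehog genes were called at shares near the background of 6.53% and 9.7%. Of 14 tested, 1 was higher, Arhgap36, and 2 lower, the effector Gli2 (-1.53) and the ligand-releasing Disp1 (-1.48), and the higher ones were 2 without C3S library 2. Of 52 guidance genes 9 were higher (17.3%) and 15 lower (28.8%). The ephrin receptor Epha4 had 73.2 and 112 in the C3S libraries, against 1809.5 and 1886 in the WT libraries (log2 fold change -4.28, SE 0.0978), and the netrin receptor Unc5c had 1128 and 1115 in the C3S libraries, against 136 and 115 in the WT libraries (log2 fold change 3.15, SE 0.0944). The semaphorin receptors Plxnb1 and Plxna4 were lower (-3.91 and -3.44), while Sema6a and Rgma were higher (2.83 and 2.21).

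More immune genes were lower than higher in C3S cells. Of 53 interferon-stimulated genes and nucleic acid sensors tested, from 73 in the table, 26 were lower and 3 higher. These are 49.1% and 5.66%, beside a background of 9.7% and 6.53%, and the median was -1.01. Some passed the count minimum only through WT cells and had to be lower. Irf7 had 3 counts over both C3S libraries and 38 over both WT libraries, and Oas1a had 2 and 41. With a mean count of at least 50, 16 were lower and 1 higher. Without WT library 1 the higher ones were 5. Xaf1, a promoter of cell death, had 3.98 and 7.23 in the C3S libraries, against 128 and 118 in the WT libraries (log2 fold change -4.38, SE 0.326), and the log2 fold change was -5.04 without C3S library 2. Samd9l, which restrains translation in infected cells, had 95.9 and 102 in the C3S libraries, against 394 and 352 in the WT libraries (log2 fold change -1.91, SE 0.130), and Parp9, a partner in interferon signalling, had 52.8 and 60.2 in the C3S libraries, against 230.2 and 198 in the WT libraries (log2 fold change -1.91, SE 0.171). The antiviral gene Ifit2 was among the higher ones, at 1491 and 1533 in C3S cells and 632 and 703 in WT cells (1.18, SE 0.0645). Of 17 genes of MHC class I and peptide loading 7 were lower (41.2%) and 0 higher, with a median of -0.92. With a mean count of at least 50 the lower ones were 3. The class I heavy chains H2-D1, H2-K1 and H2-T23 had log2 fold changes of -2.51, -2.65 and -1.44, all uncertain because class I genes share sequence and differ between strains. The summed level of the list nevertheless was higher in C3S cells, at 69085 and 68492 normalised counts against 49257 and 49257 in WT cells. Calr and Pdia3, abundant chaperones that were singled out after their values were seen, made up most of it. Calr had 42911 and 41525 in C3S cells, against 27217 and 28291 in WT cells, and Pdia3 had 21215 and 21896 in C3S cells, against 15171 and 14509 in WT cells. By edgeR 3 members were higher at an unadjusted p under 0.05, and DESeq2 called 0.

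Of 47 cytokine, chemokine, NF-kB and complement genes 19 were lower (40.4%) and 5 higher (10.6%), with a median of -0.57. Complement C3, the centre of the complement cascade, had 62.3 and 56.5 in the C3S libraries, against 699 and 672 in the WT libraries (log2 fold change -3.53, SE 0.123), and the classical-pathway protease C1s had 54.0 and 67.4 in the C3S libraries, against 750.0 and 731 in the WT libraries (log2 fold change -3.59, SE 0.122). The chemokine Cxcl16 stood at 2.40 and 7.53 in C3S cells and 106 and 99.0 in WT cells (-4.25, SE 0.358), and its log2 fold change was -5.34 without C3S library 2. Il1rl1, the receptor for interleukin-33, was among the most abundant transcripts that differed, with 17968 and 18735 in the C3S libraries, against 3072 and 3079 in the WT libraries (log2 fold change 2.58, SE 0.0457). Tslp, an alarm cytokine of epithelia, stood at 147 and 115 in C3S cells and 18.8 and 8.50 in WT cells (3.22, SE 0.281), and Ptgs2, the inducible cyclooxygenase, at 9301 and 9282 in C3S cells and 2769 and 2785 in WT cells (1.74, SE 0.0468). The log2 fold change of Tslp was 3.91 without WT library 1. After H2O2, 20 of 52 were lower and 5 higher.

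**Figure D4:**
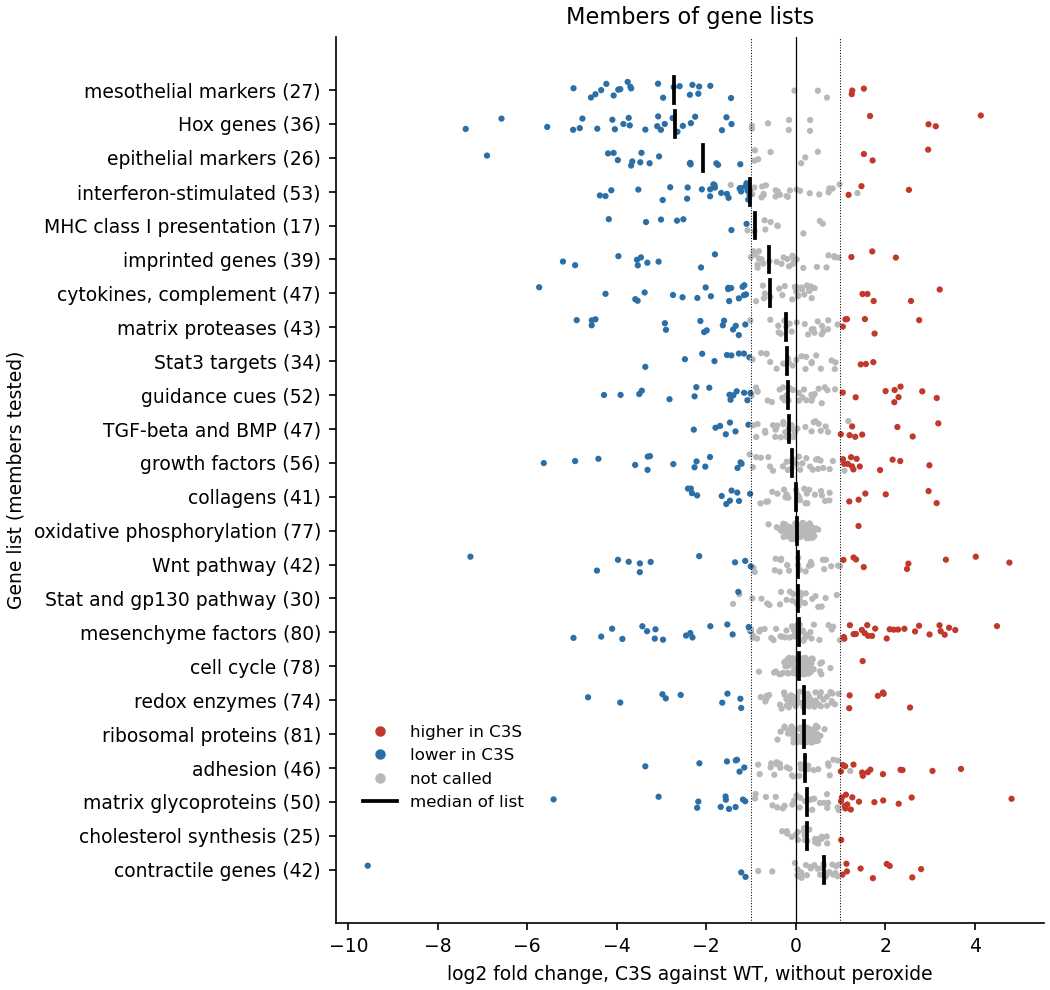
Each point is a tested member of a gene list, placed by its fitted log2 fold change of C3S against WT cells; black bars are list medians and dotted lines mark 2-fold. Mesothelial, Hox and epithelial genes have medians below -2, whereas genes of the cell cycle, the ribosome and oxidative phosphorylation gather around 0.

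Few genes of the basic machinery of growth were called. None of the 81 ribosomal protein genes was called by edgeR, although 55 were higher and 8 lower by adjusted p alone, with log2 fold changes from -0.41 to 0.65 (median 0.19). At an unadjusted p under 0.05 there were 55 higher and 8 lower, and DESeq2 called 0. Of 77 nuclear genes of oxidative phosphorylation 1 was called, and that call was lost with DESeq2, with a mean count of at least 50, in the test against a fold of 2 and without C3S library 2. Of 78 cell cycle genes 1 was called, cyclin D1 (Ccnd1), with 10217 and 10360.1 in the C3S libraries, against 3501 and 3791 in the WT libraries (log2 fold change 1.50, SE 0.0473). Sdhb and Ndufs6, subunits of the respiratory chain, had log2 fold changes of 0.07 (adjusted p = 0.357) and -0.28 (adjusted p = 0.0208), and Trp53 one of -0.18 (adjusted p = 0.00172). Of 42 p53 targets and Cdk inhibitors 3 were higher and 1 lower, or 7.14% and 2.38%, beside a background of 6.53% and 9.7%. The Cdk inhibitor gene Cdkn1a had a log2 fold change of 1.10 and the death receptor gene Eda2r one of 1.13. In the edgeR test against a fold of 2 the 3 higher calls were lost, with adjusted p = 0.114 for Cdkn1a and 0.190 for Eda2r. Of 25 cholesterol genes 1 was called, Sc4mol (1.02), and 16 were higher by adjusted p alone. Sc4mol missed 2-fold without WT library 1 (0.98).

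Redox genes were spread. Of 74 tested, 6 were higher and 9 lower (median 0.18), and these counts lie near the background of 6.53% and 9.7%. Nox4, an oxidase that makes peroxide, had 137 and 147 in the C3S libraries, against 26.7 and 21.3 in the WT libraries (log2 fold change 2.56, SE 0.226), and glutaredoxin (Glrx) had 705 and 686 in the C3S libraries, against 305 and 301 in the WT libraries (log2 fold change 1.20, SE 0.0867). Mgst1 and Mgst3, microsomal glutathione transferases, went opposite ways. Mgst1 had 10.8 and 12.2 in C3S cells and 291 and 294 in WT cells, whereas Mgst3 had 301 and 330.3 in C3S cells and 91.9 and 69.1 in WT cells. The aldehyde dehydrogenase gene Aldh1a1, which makes retinoic acid and is also on the mesothelial list, had 70.6 and 66.0 in the C3S libraries, against 1041 and 1024 in the WT libraries (log2 fold change -3.92, SE 0.107). Prdx2, the peroxiredoxin that relays oxidation to Stat3, had 2458 and 2422 in the C3S libraries, against 2855 and 2582 in the WT libraries (log2 fold change -0.16, SE 0.0535) and was not called. Of 42 glycolytic and Hif-1 target genes 2 were higher and 5 lower, which is also near the background. The higher ones were 1 without C3S library 1 or without WT library 1, and a test against a fold of 2 left 1 higher and 3 lower. Adrenomedullin (Adm), a vasodilator peptide, had 396 and 365 in the C3S libraries, against 33.7 and 24.5 in the WT libraries (log2 fold change 3.70, SE 0.169), and the lactate exporter Slc16a3 had 58.7 and 86.6 in the C3S libraries, against 1256 and 1255 in the WT libraries (log2 fold change -4.08, SE 0.107). Hif1a itself had 4495 and 4543 in C3S cells and 4131 and 4355 in WT cells (log2 fold change 0.09, adjusted p = 0.0978).

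Of 31 genes of fat cells and fatty acid handling 4 were higher (12.9%) and 6 lower (19.4%). Pparg, the master regulator of fat cells, had 112 and 136 in the C3S libraries, against 345 and 369.9 in the WT libraries (log2 fold change -1.51, SE 0.127). The fatty acid carrier Fabp4 stood at 126 and 83.7 in C3S cells and 11.9 and 10.6 in WT cells (3.19, SE 0.311) and the lipid droplet gene Plin4 at 131 and 138 in C3S cells and 23.7 and 20.2 in WT cells (2.61, SE 0.233). Cebpb was called lower (-1.03, adjusted p = 0.0169), but the C3S libraries differed at 729.6 and 515. It was -0.79 and under 2-fold without C3S library 2, -0.97 with adjusted p = 0.122 without WT library 1 and -1.10 with adjusted p = 0.0997 without WT library 2. Of 34 immediate early genes 4 were higher and 3 lower, or 11.8% and 8.82%, beside a background of 6.53% and 9.7%. Jun and Fosl1, subunits of AP-1, stood at 5494 and 5266 in C3S cells and 1927 and 1813 in WT cells (1.52, SE 0.0516) and 2523 and 2461 in C3S cells and 1083 and 1043 in WT cells (1.23, SE 0.0557), while Atf3 and Nr4a2 were lower (-2.41 and -1.72). Dusp6, a phosphatase of the Erk kinase, had 1542 and 1427 in the C3S libraries, against 3621 and 3677 in the WT libraries (log2 fold change -1.30, SE 0.0537). Of 17 circadian clock genes 2 were higher and 1 lower (median 0.40), or 11.8% and 5.88%, beside the same background. The lower one was Bhlhe40, a clock repressor, with 389.7 and 393 in the C3S libraries, against 1498 and 1391 in the WT libraries (log2 fold change -1.88, SE 0.0710).

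Imprinted genes, read from 1 parental copy, were lower more often than higher, as were all genes tested. The shares were 25.6% lower and 7.69% higher, beside a background of 9.7% and 6.53%. The higher share thus lay near the background. Of 39 tested, 10 were lower and 3 higher (median -0.59), and without C3S library 2 the lower ones were 16. Peg3, a zinc finger factor expressed from the paternal copy, had 269.8 and 303 in the C3S libraries, against 3293 and 3440.3 in the WT libraries (log2 fold change -3.55, SE 0.0685). Igf2, given above, and H19 are neighbours that share an imprinting centre, and they went opposite ways, with H19 at 350.1 and 302 in C3S cells and 56.3 and 81.8 in WT cells (2.24, SE 0.155). Sfmbt2 and Plagl1 were higher (1.71 and 1.25) and Ddc was lower (-3.46). The Plagl1 call was lost in the edgeR test against a fold of 2 (adjusted p = 0.0659). Of the germ-cell list, 7 of 55 genes in the table passed the count minimum, and 3 of them were lower. Ddx4, the largest of these differences, was the one among them with more than 100 normalised counts in a line. Xist, the RNA that silences an X chromosome, had 753 and 793 in the C3S libraries, against 2015 and 2107 in the WT libraries (log2 fold change -1.41, SE 0.0596). Y-linked genes were found in the same libraries, with Ddx3y at 3095 and 3278 in C3S cells and 2835 and 3050.2 in WT cells (0.12, SE 0.0519), and none of Ddx3y, Eif2s3y, Kdm5d and Uty was called. Both Xist and Y-linked transcripts were thus present in each untreated library of either line.

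Fold changes also differed by chromosome. Over 12418 tested genes with a position in the annotation, the median log2 fold change of single autosomes ran from -0.27 to 0.30, and 10 of 19 autosomes had a median beyond 0.1 in size. The medians were highest on chromosome 12, at 0.30, chromosome 10, at 0.27, and chromosome 9, at 0.21. They were lowest on chromosome 6, at -0.27, chromosome 11, at -0.25, and chromosome 14, at -0.23, with chromosomes 5 and 1 at -0.19 and -0.17. The shift lay in most genes of a chromosome and not in a few. On chromosome 11, which carries Stat3, Socs3 and the Hoxb cluster, 73.7% of 1005 genes were below 0, against 23.4% of 616 genes on chromosome 10. Cut into stretches of 10 megabases with at least 20 genes, all 12 stretches of chromosome 10 and all 9 of chromosome 12 had a median above 0, and all 12 of chromosome 6, all 7 of chromosome 14 and all 11 of chromosome 5 had one below 0. Each of the 4 pairings of a C3S with a WT library gave nearly the same value (on chromosome 12 from 0.29 to 0.32), whereas libraries of the same line differed by -0.03 to 0.01 on any autosome (log2 of normalised count plus 1). After H2O2 the medians were 0.40 on chromosome 12, 0.33 on chromosome 10, -0.29 on chromosome 6 and -0.28 on chromosome 11, whereas chromosome 1 stood nearer to 0, at -0.08. The sign was the same in 14 of 19 autosomes. Genes of a chromosome are not replicates, and these values are a description without a test.

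**Figure D5:**
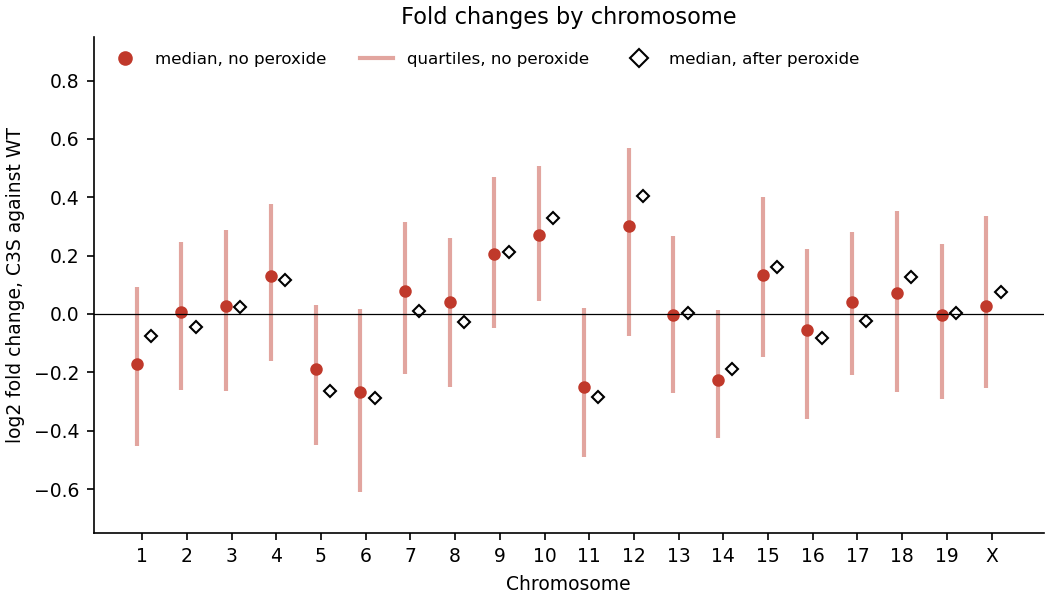
Median (red points) and quartiles (bars) of the log2 fold change of C3S against WT cells over the tested genes of each chromosome without peroxide, with the medians after peroxide as open diamonds. Chromosomes 9, 10 and 12 lie above 0 and chromosomes 5, 6, 11 and 14 below 0 in both sets of libraries.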

How the data were processed

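RNA of untreated C3S and WT cells was sequenced as single-end reads from a directional kit. Per the study's methods and the submitters' notes, the authors aligned the reads to mm10 with TopHat2 2.0.10 and used reads mapped uniquely to exons. The deposited expected counts (estimated counts, 58.4% of them whole within 1e-09) were rounded. How they were estimated, and whether strand was used, is not given in the sources used here. A second sheet holds a signal that the authors made by dividing these counts by 1 size factor per library. It served only as a check of the factors used here, which were the same. A further 24 columns of values were not used. Of 19041 rows, 27 bear a date in place of a gene name (0.28% of counts), and 17 of these were tested. Libraries held 17050016 to 22260814 counts.

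Genes with a mean expected count of at least 10 in C3S or WT cells were compared by edgeR 4.0.16 in R 4.3.3 (robust quasi-likelihood fit), with median-of-ratios factors of all 8 libraries, so that values are relative to the typical gene. Adjusted p-values are Benjamini-Hochberg values over every gene of the fit. SE is the log2 fold change over the square root of F. Where a line had no count, the fold is a bound against 3 counts in the line. The test was run on simulated data with known changes before use. The alternatives were DESeq2 1.42.0, TMM scaling, other filters, a test against 2-fold, all 8 libraries, a replicate block and leaving out each library. Positions and symbols came from RefSeq for GRCm38.p6, which matched 99.3% of rows.

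The 41 lists and their members were written with earlier results of these data known. Of the genes called, those named are the 10 with the largest rise and the 10 with the largest fall (mean of at least 200 in the higher line, with a plain symbol), up to 3 in each direction per list (mean of at least 100), defining markers, and a fixed set (Stat3, Socs3, Il6st, Lifr, Osmr, Hif1a, Prdx2, Sdhb, Ndufs6, Trp53, Xist and Y-linked genes). Genes with no count in a line, Hoxd11, Calr and Pdia3 were singled out after their values were seen. Some genes that the rule gives are not reported here.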

Additional observations from a re-analysis of the deposited data

Results flagged for a closer look

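For 17 of the named genes the difference between C3S and WT cells itself differed between untreated and H2O2 libraries, by the interaction test of edgeR at adjusted p under 0.05 and 2-fold, over 13538 genes tested in all 8 libraries. Values are the log2 fold change of C3S against WT cells after H2O2 minus the one without it, so a positive value means that C3S stood higher relative to WT after H2O2. Of these genes, 13 were lower in untreated C3S cells and had a positive value. Most named genes were picked for a large difference without H2O2, and that difference is subtracted in this value. The count may thus partly follow from how the genes were chosen, and a common trend was not tested.

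The largest value was that of the matrix gene Smoc1, at 3.89 (adjusted p = 3.92e-07, edgeR). Smoc1 had 26.2 and 27.8 normalised counts in the C3S H2O2 libraries, against 78.6 and 77.5 in the WT H2O2 libraries, and a log2 fold change of -1.53 there, against -5.41 without H2O2. Socs3 had a value of 1.68. It stood at 310.1 and 313 in C3S and 277 and 248 in WT cells after H2O2, where it was no longer lower in C3S cells (0.25, edgeR adjusted p = 0.0437). The cytokine gene Lif had 1.17 and stood at 698 and 710.4 in C3S and 784 and 731 in WT cells after H2O2. The cartilage collagen gene Col2a1 had 1.65, and after H2O2 its log2 fold change was -0.01.

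Signalling genes with a positive value were Fgf18 (2.22), Wnt11 (1.43), Hes1 (1.38), Plxnb1 (1.08) and Jag2 (1.07). Early response and clock genes were Atf3 (1.58), Nr4a2 (1.43) and Bhlhe40 (1.14), and the neuronal tubulin Tubb3 had 1.08. Vldlr, a lipoprotein receptor, was higher in C3S cells without H2O2 and further apart after it (1.13). Negative values were found for Adm (-2.21), at 153 and 156 in C3S and 58.2 and 51.8 in WT cells after H2O2, for Jun (-1.03) and for Igf2 (-1.59), where the gap between the lines widened, with C3S at 4.37 and 12.2 and WT at 815 and 727 after H2O2.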

How the results depend on the processing

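The counts of 815 higher and 1212 lower genes moved most with the call rule and the filter. A test against a fold of 2 gave 534 higher and 809 lower genes, and a mean count of at least 50 gave 610 and 806. DESeq2 called 733 and 1054, TMM scaling 813 and 1218, no filter 839 and 1281, and a fit of all 8 libraries 817 and 1212. Leaving out 1 library gave 780 to 826 higher and 1141 to 1193 lower genes, and of the 2027 calls DESeq2 kept 1784. Where leaving out a library left a line with 1 sample, that sample was assumed to vary like the other line. Stat3 stayed under 2-fold in each alternative. Of the genes called without H2O2, DESeq2, TMM and no filter on the H2O2 libraries gave counts within 1.5 times of the 667 and 979 called again.

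With the replicate number as a replicate block, 814 genes were higher and 1208 lower, 2008 of them called without it, and the lower genes of the Stat pathway list were 2 in place of 1, as they were with no filter on low counts. The numbers come from the column names and not from the labels, and libraries of the same number did not deviate together (r = 0.077 across 10184 genes, which are not replicates), so they were not taken as pairs.

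Of 176 named genes other than Stat3, 165 kept direction and call in every alternative. The 163 called ones lost 8 under the test against 2-fold and 1 to 5 when a library was left out, and the values of Mylk, Sc4mol and Cebpb are given above. The sign turned for Sdhb and Uty, which were not called. When a library was left out, Sdhb gave -0.0015 (without C3S library 1) to 0.145, and Uty gave -0.226 to 0.0037 (without C3S library 1), with 0.00059 without WT library 2. List counts were within 1.5 times of those given in 850 of 902 comparisons. TMM moved no autosome median by more than 0.0044 and the stricter filter none by more than 0.031. Depth limits genes near the count minimum, where a line at 0 gives a bound.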
